A study of Mus musculus with 3 samples.

Results

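The genes described here are a module of 42 listed genes that respond to hypoxia-inducible factor (HIF) or carry out glycolysis. They were listed by name and comprised 19 HIF targets outside glycolysis, 4 genes for HIF subunits and the Vhl ubiquitin ligase, 3 glucose and lactate transporters, and 16 glycolytic enzymes, a list that includes the regulatory enzyme Pfkfb3. A probe set annotated to 1 gene was found for 39 of the 42, among 18193 genes measured in all, and 38 of the 39 were above background on every array, the exception being Car9. Bnip3l had probe sets annotated to several genes only, and Gpi1 and Eno1 were not named in the annotation, so these 3 members have no value here.

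The module was measured in primary cultures of 3 pigmented epithelia of the C57BL/6 mouse eye, taken from donors aged 6 to 8 weeks: iris (IPE), ciliary body (CBPE) and retinal pigment epithelium (RPE), in a study whose title concerns thrombospondin-1 and T cells. IPE and CBPE had RPMI 1640 as their medium, at 10% serum, whereas RPE had DMEM at 20% serum, and each culture was kept overnight without serum before its RNA was taken. Per the sample descriptions, more than 99% of IPE cells and more than 95% of CBPE and RPE cells stained for cytokeratin, the latter 2 cultures after 14 days. Each culture was hybridised to 1 array, so every value is a single measurement with no replicate error, no test between cultures was possible, and wherever RPE is compared, its tissue and its medium cannot be told apart.

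HIF is a pair of proteins, an oxygen-regulated alpha subunit (Hif1a or Epas1, which encodes HIF-2α) and the constitutive partner Arnt. With oxygen present, prolyl hydroxylases of the Egln family mark the alpha subunit, and the ubiquitin ligase that contains Vhl has it degraded, so that HIF activity is set mainly at the level of protein, which arrays do not measure. Stabilised HIF binds DNA at the core sequence ACGTG or GCGTG and raises the transcription of genes for glucose uptake, glycolysis, lactate export, angiogenic signals and mitochondrial quality control. In the eye, the retinal pigment epithelium is known to take up glucose through Slc2a1 and pass it on to the photoreceptors.

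RefSeq promoter windows of build GRCm38.p6, 250 bases before to 50 bases after a gene's start, were found for 36 of the 42 members. The core ACGTG lay on at least 1 strand in 26 of the members' 55 windows (47.3%), against 19.6% of all 32851 windows and 22.9% of the 18109 windows of genes with a probe set here. Either core, ACGTG or GCGTG, was found in 43 of the members' windows (78.2%), against 43.8% and 54.6%. The palindrome CACGTG, which holds ACGTG on both strands and so counts here as an overlapping pair of sites, was present in 9.09% of the members' windows and 7.15% of all windows. Many members are listed because they are known HIF targets, so a high share of cores was built into the choice, and a match is only a run of letters. The upstream 250 bases of 6 members are printed because these genes carry the differences described next: Egln3, Bnip3, Ankrd37 and Slc16a3 for the low RPE signal, Hk2 for an order that falls from IPE to CBPE to RPE, and Ldha for a signal highest in CBPE. Capitals mark ACGTG or GCGTG on the printed strand, or their reverse complements CACGT and CACGC.

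Egln3, chr12:54203875-54204124, minus strand: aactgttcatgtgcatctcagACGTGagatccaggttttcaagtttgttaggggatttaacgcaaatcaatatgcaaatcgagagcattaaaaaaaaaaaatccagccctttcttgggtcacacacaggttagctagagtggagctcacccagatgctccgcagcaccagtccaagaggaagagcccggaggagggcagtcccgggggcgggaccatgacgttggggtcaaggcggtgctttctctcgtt
Bnip3, chr7:138909507-138909756, minus strand: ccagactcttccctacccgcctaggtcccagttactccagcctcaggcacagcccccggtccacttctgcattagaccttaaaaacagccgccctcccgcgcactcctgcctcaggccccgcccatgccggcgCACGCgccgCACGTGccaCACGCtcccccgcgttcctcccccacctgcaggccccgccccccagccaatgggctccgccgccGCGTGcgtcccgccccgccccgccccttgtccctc
Ankrd37, chr8:45999851-46000100, minus strand: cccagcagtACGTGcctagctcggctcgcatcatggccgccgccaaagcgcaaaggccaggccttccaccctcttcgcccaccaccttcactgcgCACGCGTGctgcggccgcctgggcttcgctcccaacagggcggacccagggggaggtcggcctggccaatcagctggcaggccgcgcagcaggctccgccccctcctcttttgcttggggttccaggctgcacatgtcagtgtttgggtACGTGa
Slc16a3, chr11:120948817-120949066, plus strand: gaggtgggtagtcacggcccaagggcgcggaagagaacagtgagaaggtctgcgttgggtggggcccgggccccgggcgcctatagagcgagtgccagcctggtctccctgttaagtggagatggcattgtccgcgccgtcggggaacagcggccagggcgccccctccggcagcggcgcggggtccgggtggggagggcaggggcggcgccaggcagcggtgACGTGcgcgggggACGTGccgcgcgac
Hk2, chr6:82774455-82774704, minus strand: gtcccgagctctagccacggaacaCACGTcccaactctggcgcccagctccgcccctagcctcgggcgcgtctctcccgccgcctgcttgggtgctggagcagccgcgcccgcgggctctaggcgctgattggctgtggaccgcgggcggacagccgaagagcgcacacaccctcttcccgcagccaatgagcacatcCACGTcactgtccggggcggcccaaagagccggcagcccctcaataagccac
Ldha, chr7:46845554-46845803, plus strand: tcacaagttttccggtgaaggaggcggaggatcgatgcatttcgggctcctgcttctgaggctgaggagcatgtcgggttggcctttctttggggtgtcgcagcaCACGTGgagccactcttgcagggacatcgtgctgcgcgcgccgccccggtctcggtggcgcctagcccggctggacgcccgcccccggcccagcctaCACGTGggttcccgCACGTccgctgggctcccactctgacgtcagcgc

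The Egln3 window held 1 ACGTG site, starting 229 bases before the start, and no GCGTG. Slc16a3 had its 2 ACGTG sites close to the start, beginning 27 and 14 bases before it, whereas those of Hk2 began 226 and 52 bases before it. Bnip3 had 2 ACGTG and 3 GCGTG sites, Ankrd37 had 2 of each, and the Ldha window, the first of 2 RefSeq starts, had 5 ACGTG sites, 4 of them as the overlapping pairs of 2 CACGTG palindromes. ACGTG was found in at least 1 window of 23 of the 36 members (63.9%), beside 21.8% of all genes and 26.1% of genes with a probe set here. As with the windows, a high share was built into the choice. Ndrg2 and Pfkl were among the members without ACGTG, so both kinds occur among the genes with low RPE signals.

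Signals are linear array intensities of the gene's brightest probe set, and differences are in log2. Each array had a floor at the median of its own probe sets (14.5 for IPE, 17.3 for CBPE and 16.8 for RPE), under which a signal was set to the floor. Genes counted as lower or higher had a ratio of 2 or more between their signals, with the larger signal above the floor. Signals of a gene, or sums over a marker list, were compared between arrays. In such a sum the brightest genes weigh most. Genes were set against one another only by mean signal, to read differences beside equally bright genes. The one error that could be measured, the disagreement of probe sets of the same gene, was smallest between RPE and CBPE, with a pooled SD in log2 of 0.29 (1693 genes), and reached 0.45 between RPE and IPE (1773 genes) and 0.49 between CBPE and IPE (1666 genes). Culture-to-culture and hybridisation-to-hybridisation spread are not part of this SD.

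The module as a whole was lower in RPE than in either other culture. Against CBPE, RPE was lower by 2-fold or more for 17 of 39 members, where this held for 4.26% of the 12860 genes measured, and none was at least 2-fold higher, where 3.75% of genes were. Against IPE, 19 of 39 members were lower in RPE, where 10.5% of 12446 genes were, and none was higher, where 9.87% were. The median log2 difference over the members was -0.87 against CBPE and -0.94 against IPE, beside -0.0020 and 0.017 over all genes. The 2 comparisons use the same RPE array, so they are not separate evidence. The members were also chosen with earlier results of these data known, so the shares describe the list and do not test it. Of the 17 members lower than in CBPE, 10 stayed at least 2-fold lower under each alternative way of processing, and Ak4, Ankrd37, Car9, Epas1, Pfkp, Pfkfb3 and Ldha did not under at least 1, while the direction held for the 17. Of the 19 lower than in IPE, 10 stayed past 2-fold. Egln3, Ak4, Ankrd37, Pdk1, Arnt, Slc2a3, Slc16a3, Pfkfb3 and Aldoc did not under at least 1 alternative, and the direction turned for Slc2a3, by a probe set whose RPE signal was below the floor. Members with 1 probe set could not be moved by the alternatives that change the probe set. Between CBPE and IPE, 7 members were lower in CBPE and 7 higher, shares of 17.9% each beside 12.5% and 11.8% of 12831 genes.

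**Figure D1:**
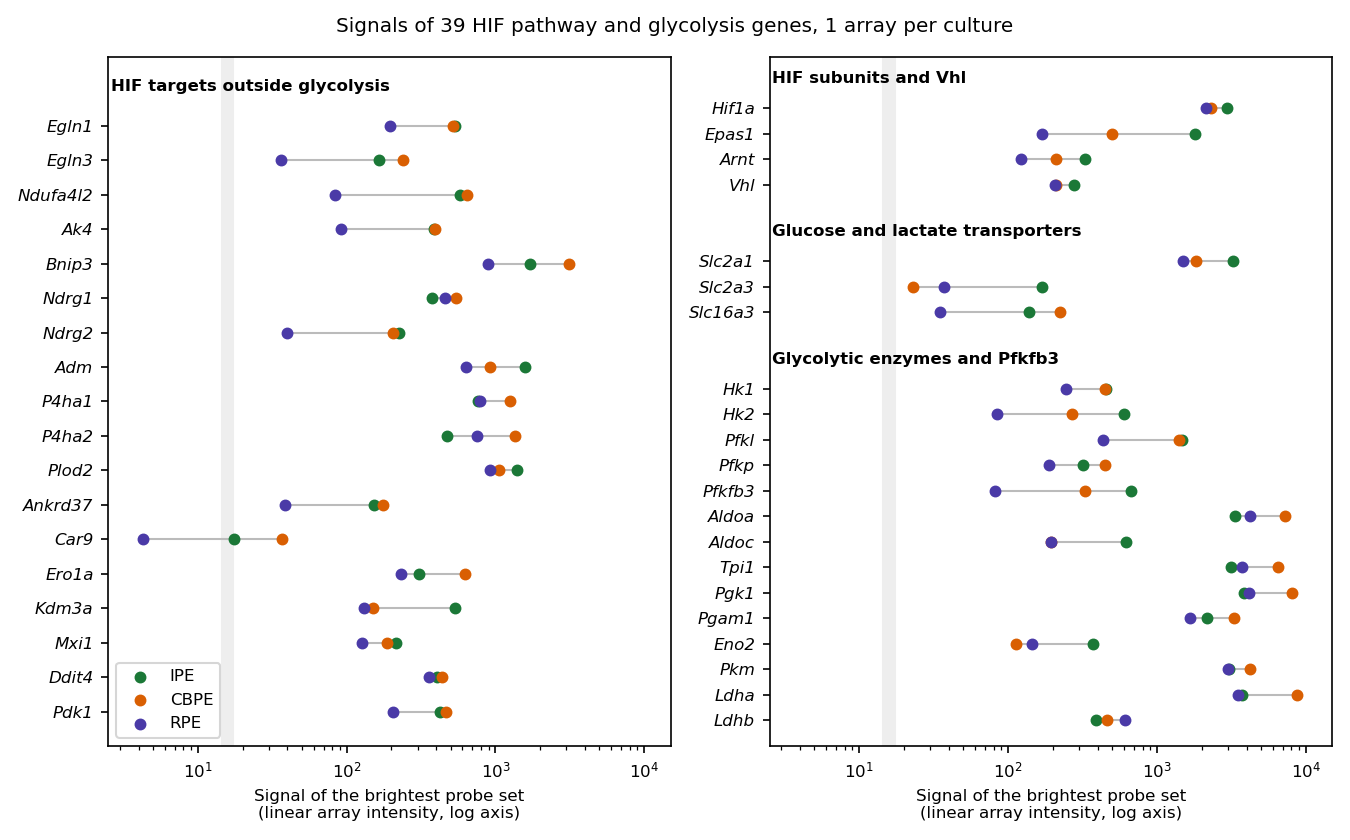
Signal of the brightest probe set of each of the 39 measured members in IPE (green), CBPE (orange) and RPE (purple), on a log axis of linear array intensity, 1 point per array. The grey band spans the floors of the 3 arrays, from 14.5 to 17.3, and the RPE point is the lowest for most genes, while the IPE point is the highest for each of the 4 HIF subunits and Vhl genes.

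Among the 38 members above the floor on all 3 arrays, RPE had the lowest signal for 29, where it was lowest for 27.5% of the 10244 genes measured so. RPE had the highest signal for 1 member, Ldhb, where it was highest for 28.4% of genes. The highest signal was in CBPE for 19 members, where it was for 29.7% of genes, and in IPE for 18, where it was for 42%. CBPE was lowest for 2 members, Slc2a3 and Eno2, beside 33.9% of genes, and IPE for 7, beside 38.6%. No member lay at least 2-fold above both other arrays in RPE (0.764% of 13345 genes did), or 2-fold below both in IPE (6.13%) or in CBPE (2.19%). RPE lay at least 2-fold below both other arrays for 12 of 39 members, where 1.03% of genes did: the targets Egln1, Egln3, Ndufa4l2, Ak4, Ndrg2, Ankrd37 and Pdk1, the subunit Epas1, the lactate exporter Slc16a3, and the enzymes Hk2, Pfkl and Pfkfb3. Only Egln1, Ndufa4l2, Ndrg2, Hk2 and Pfkl of these 12 kept 2-fold against both arrays under every alternative, and Egln3, for example, fell to -0.73 against IPE with a fixed floor of 100. Ndufa4l2, Ndrg2 and Hk2 have 1 probe set each, so the alternatives that change the probe set could not move them. In these bulk cultures, fewer cells expressing a gene and less RNA per cell cannot be told apart.

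By their brightest probe sets, Hif1a, Epas1, Arnt and Vhl each had the highest signal in IPE and the lowest in RPE. Epas1 read 1809.5 in IPE, 496.3 in CBPE and 168.1 in RPE. IPE thus exceeded CBPE by 3.65-fold, CBPE exceeded RPE by 2.95-fold, and RPE against IPE, at 10.8-fold, was the widest difference of any member. Its dimmer probe set read 102.0, 21.7 and 14.3, in the same order. Arnt, the partner subunit, read 329.1, 209.4 and 122.8 in the same 3 cultures, 2.68-fold lower in RPE than in IPE, although 1 of its 4 dimmer probe sets, close to the floor, ran the other way. Hif1a was close between the arrays, at 2954.5, 2322.9 and 2147.8, with a log2 difference of -0.11 between RPE and CBPE and -0.46 between RPE and IPE.

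Of 2 dimmer Hif1a probe sets above the floor, the first gave 524.8, 359.8 and 341.0, and the other gave 827.3, 86.1 and 75.4, a difference of -3.46 in log2 between RPE and IPE. These probe sets kept IPE highest and differed in how far. Vhl, which recognises the hydroxylated alpha subunit, read 276.1, 209.4 and 205.5, within 2-fold throughout, and its other probe set read 145.1, 29.5 and 30.6. The size of the IPE excess for Hif1a and Vhl therefore depended on the probe set, whereas RPE and CBPE lay close on each of these probe sets.

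Among HIF targets outside glycolysis, RPE was lower than CBPE by 2-fold or more for 10 of 18, beside 4.26% of all genes. None was higher, beside 3.75%, and the median log2 difference was -1.16. By their brightest probe sets all 18 had a lower value in RPE, with differences from -2.95 for Ndufa4l2 to -0.20 for Plod2. The dimmer Plod2 probe set ran the other way, at 0.51. For Ndrg1, 3 of 5 probe sets were lower in RPE, and the highest value was 0.46. Against IPE, 9 of 18 were lower in RPE, beside 10.5% of all genes, and none was higher, beside 9.87%. The median was -1.00. The targets low in RPE included both feedback hydroxylases, mitochondrial and metabolic regulators, and 2 genes of less settled role, Ankrd37 and Ndrg2.

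Egln1, the main prolyl hydroxylase acting on HIF and itself induced by it, read 532.4 in IPE, 521.3 in CBPE and 196.9 in RPE. RPE was 2.70-fold below IPE and 2.65-fold below CBPE, which lay within 0.03 log2 of each other, and the second Egln1 probe set gave the same RPE deficit against CBPE, -1.40. Egln3, a hydroxylase that is strongly induced in hypoxia in many cells, read 165.8, 240.4 and 36.1. RPE stood apart from both, 6.66-fold below CBPE and 4.59-fold below IPE, and the dimmer Egln3 probe set read 42.9, 60.3 and 5.7, the last below the floor.

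Ndufa4l2, a mitochondrial protein that lowers respiratory chain activity in hypoxia, read 581.4 in IPE, 648.7 in CBPE and 83.9 in RPE. At 7.73-fold below CBPE and 6.93-fold below IPE it was the target with the widest RPE deficit, and IPE and CBPE differed by 0.16 log2. Ak4, a mitochondrial adenylate kinase, read 389.3, 395.3 and 92.4, 4.28-fold lower in RPE than in CBPE. Pdk1, which phosphorylates pyruvate dehydrogenase and so keeps pyruvate out of the mitochondria, read 426.2, 466.7 and 204.4, 2.28-fold lower in RPE than in CBPE. The 4 Pdk1 probe sets ran the same way, from -1.63 to -0.69 in that comparison. Bnip3, a mitophagy receptor, read 1706.1, 3132.0 and 889.2, and so differed from the preceding genes in having CBPE well above IPE as well. The RPE deficit was 3.52-fold against CBPE and 1.92-fold against IPE.

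Ndrg2 read 223.4, 203.9 and 40.0, a deficit in RPE of 5.10-fold against CBPE and 5.59-fold against IPE. Ankrd37 read 152.4, 176.7 and 38.7, 4.57-fold and 3.94-fold lower. By the brightest probe sets as deposited, the RPE array stood alone in these genes, as in Egln1, Ak4, Ndufa4l2 and Pdk1. The difference between CBPE and IPE was then at most 0.21 log2 in size. Over all probe sets, CBPE minus IPE ran from -0.48 to 0.63 for Ak4, where some were near the floor, and from -0.50 to 0.13 for Pdk1. The other Egln1 probe set gave -0.24, and Ankrd37 was at 0.53 after quantile normalization. Ero1a, an endoplasmic reticulum oxidase that forms disulphide bonds, read 308.3, 625.5 and 231.9 by its brightest probe set, 2.70-fold lower in RPE than in CBPE. Its other probe sets read 335.8, 194.7 and 74.9, and 508.5, 435.0 and 156.7. The 3 probe sets thus gave nearly one value for RPE against CBPE, from -1.47 to -1.38, and opposite directions for CBPE against IPE, where 2.03-fold higher by the brightest became -0.23 and -0.79 in log2 by the others. Car9, a carbonic anhydrase of the cell surface that is a sensitive marker of hypoxia in other tissues, was near background at 17.4, 36.8 and 4.3. Its RPE signal was below the floor, so that RPE was at least 2.19-fold lower than CBPE.

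A further 8 targets were within 2-fold between RPE and CBPE. Kdm3a, a histone demethylase, read 533.6, 150.9 and 131.0, so the IPE array stood alone, 4.07-fold above RPE and 3.54-fold above CBPE. Adm, which encodes the vasoactive peptide adrenomedullin, read 1589.3, 925.5 and 638.5 and was 2.49-fold below its IPE signal in RPE. By its brightest probe set, none of the 3 collagen-modifying enzymes was 2-fold lower in RPE in either comparison. P4ha1, a collagen prolyl hydroxylase, read 762.5, 1259.4 and 790.5, and P4ha2, of the same family, read 474.4, 1356.4 and 750.5, with CBPE highest and RPE level with or above IPE in both. P4ha2 was 2.86-fold above its IPE signal in CBPE. The other P4ha1 probe set read 657.9, 308.4 and 262.1, with IPE highest, so the order for that gene depended on the probe set. Plod2, a collagen lysyl hydroxylase, read 1385.9, 1050.4 and 912.6 and was within 2-fold in each comparison by that probe set. Its other probe set read 1272.7, 544.6 and 776.5, a log2 difference of -1.22 for CBPE minus IPE. Ndrg1 (376.9, 546.2 and 455.4), the Myc antagonist Mxi1 (214.1, 188.1 and 127.1) and the mTOR inhibitor Ddit4 (405.4, 437.8 and 359.7) were also within 2-fold in each comparison by these probe sets. However, 2 dimmer Ndrg1 probe sets gave -1.56 and -1.28 for CBPE minus IPE, and -1.10 and -1.01 for RPE minus IPE. The dimmer Mxi1 probe set gave -1.03 for RPE minus IPE.

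**Figure D2:**
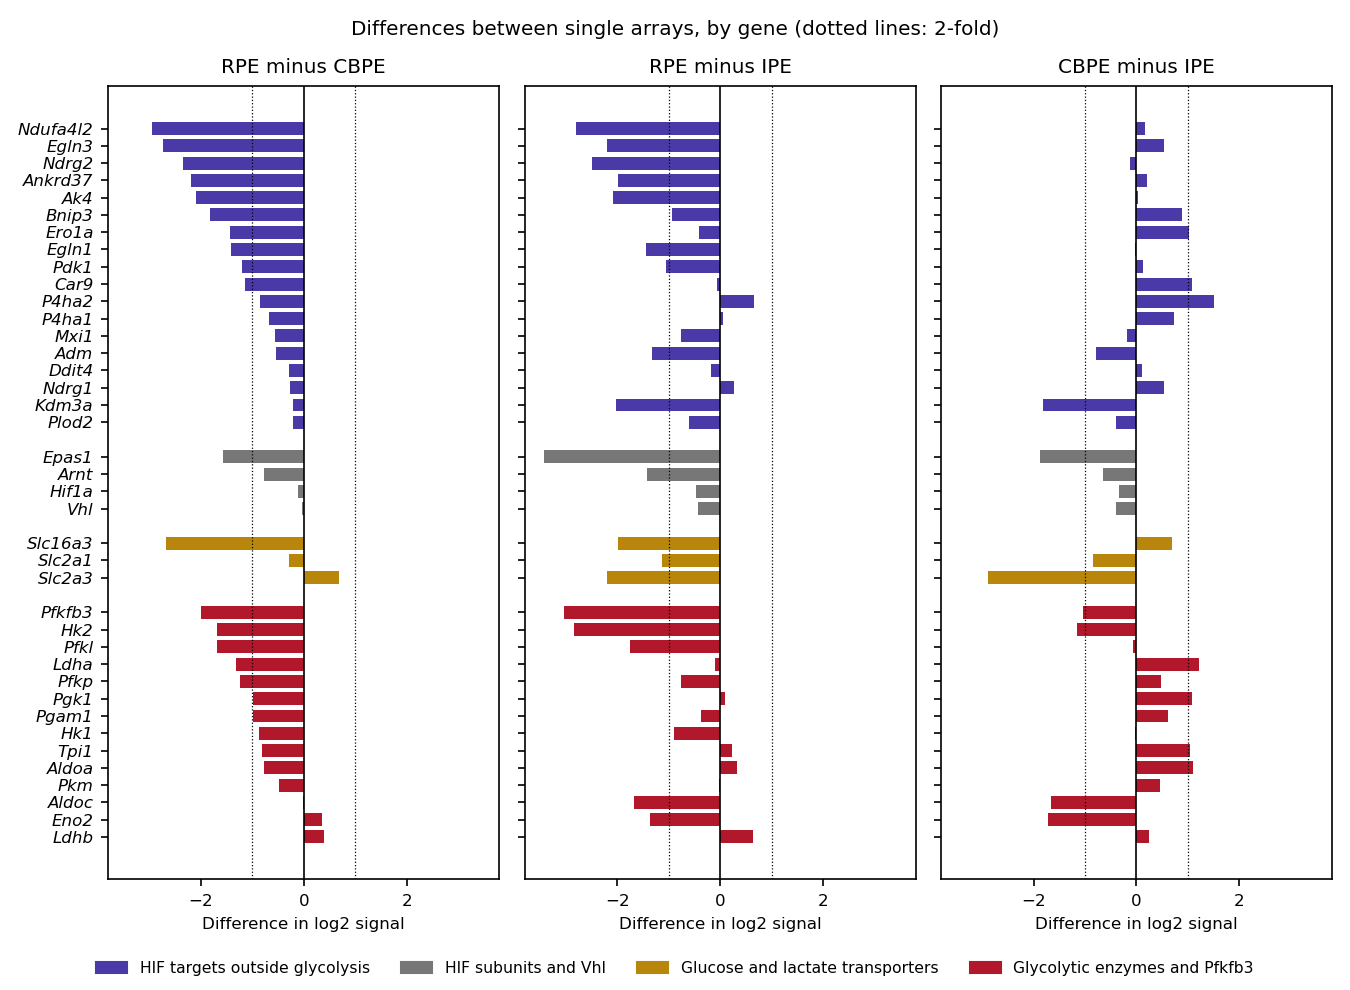
Log2 difference of the signal for each of the 39 members in RPE minus CBPE, RPE minus IPE and CBPE minus IPE, 1 bar per gene and 1 array per culture, coloured by role, with dotted lines at 2-fold. Each bar is the gene's brightest probe set. In the left panel the 18 HIF targets outside glycolysis all lie below zero, from -2.95 to -0.20, and in the right panel members lie on both sides.

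The 3 transporters differed in pattern. Slc16a3, the monocarboxylate carrier that exports lactate from glycolytic cells, read 138.0 in IPE, 222.6 in CBPE but 35.0 in RPE. The RPE deficit was 6.36-fold against CBPE and 3.94-fold against IPE. Slc2a1, the widespread glucose transporter and the main one of the retinal pigment epithelium, read 3259.8, 1822.2 and 1489.8. RPE and CBPE lay close, and RPE was 2.19-fold lower than IPE. The other Slc2a1 probe sets read 2712.0, 1297.9 and 1155.5, and 2373.2, 800.6 and 731.0, with the same order.

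Slc2a3, a high-affinity glucose transporter best known in neurons, read 168.8 in IPE but 23.0 in CBPE and 37.0 in RPE. By that probe set, IPE exceeded CBPE 7.34-fold and RPE 4.56-fold. A dimmer probe set read 52.2, 13.9 and 18.4, and another, near the floor, 15.6, 1.7 and 2.3. Without probe sets that may bind several transcripts, marked _x_at or _s_at in the array design, the log2 difference turned to 0.11 for RPE against IPE and 0.15 for CBPE against IPE, between signals at or next to the floor. These values set the RPE and CBPE floors, 16.8 and 17.3, against the IPE signal of 15.6. Before flooring, IPE was the highest on that probe set too.

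Of 14 measured glycolytic enzymes, 5 were lower by 2-fold or more in RPE when set against CBPE, beside 4.26% of all genes, and none was higher, with a median log2 difference of -0.92. Against IPE, 5 were lower in RPE, beside 10.5% of all genes, and none was higher (median -0.57), and Hk2, Pfkl and Pfkfb3 were lower in both comparisons. These 3 act at the early, regulated steps, the phosphorylation of glucose and of fructose 6-phosphate. Hk2, the inducible hexokinase, read 598.5 in IPE, 269.9 in CBPE and 83.9 in RPE, 7.13-fold lower in RPE than in IPE and 3.22-fold lower than in CBPE. Pfkfb3, which makes the activator of phosphofructokinase, read 673.0, 327.5 and 82.1, with the same order and 8.20-fold and 3.99-fold differences. For both genes CBPE lay between the others, 2.22-fold below IPE for Hk2 and 2.05-fold for Pfkfb3. The dimmer Pfkfb3 probe set read 27.6, 20.3 and 19.7, with -0.04 in log2 for RPE minus CBPE and -0.49 for RPE minus IPE.

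Pfkl, the liver-type phosphofructokinase, read 1467.9, 1401.5 and 436.7, with RPE alone low by 3.36-fold and 3.21-fold. Its second probe set read 840.2, 656.5 and 278.9, in the same order. Pfkp, the platelet-type enzyme, read 319.9, 448.0 and 189.4 and was 2.37-fold lower in RPE than in CBPE. A dimmer Pfkp probe set read 115.5, 22.4 and 18.3, with -0.29 for RPE minus CBPE and -2.66 for RPE minus IPE. Hk1, the constitutive hexokinase, read 455.0, 445.4 and 243.9, short of 2-fold lower in RPE in either comparison by that probe set. Its other probe set read 284.1, 142.7 and 104.9, with -1.44 for RPE minus IPE and -0.44 for RPE minus CBPE. By its brightest probe set, each of these 5 upper-pathway enzymes had its lowest signal in RPE.

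Aldoa, which splits fructose bisphosphate, read 3361.7 in IPE, 7220.6 in CBPE and 4226.1 in RPE. Tpi1, the triose isomerase, read 3164.4, 6504.7 and 3729.0, and Pgk1, the first ATP-forming kinase of the pathway, read 3859.5, 8140.2 and 4126.0. CBPE had the highest signal of these 3 genes. RPE lay above IPE by 0.10 to 0.33 log2 as deposited, but below it after quantile normalization, by -0.19 for Aldoa, -0.30 for Tpi1 and -0.55 for Pgk1, so the order of RPE and IPE is not settled for them. Pgam1, the phosphoglycerate mutase, read 2155.2, 3274.2 and 1662.9. Pkm, the pyruvate kinase of most tissues, read 3058.1, 4187.0 and 3020.7, with RPE and IPE 0.02 log2 apart as deposited and RPE lower, at -0.52, after quantile normalization. Gapdh, the enzyme between Tpi1 and Pgk1, is no listed member and is carried on the array as control probe sets. Its middle probe set read 5191.8, 8031.5 and 5241.6, so CBPE was 1.53-fold above RPE, and 1.42-fold and 1.44-fold by the 3′ and 5′ probe sets.

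Ldha, the lactate dehydrogenase subunit that favours lactate formation, read 3735.9 in IPE, 8668.9 in CBPE and 3491.1 in RPE. CBPE was 2.32-fold above IPE and 2.48-fold above RPE, which lay within 0.10 log2 of each other as deposited. After quantile normalization RPE minus IPE was -0.75 for Ldha, and over genes with a mean signal of at least 2000 the median of RPE minus IPE was 0.64. CBPE lay at least 2-fold above both other arrays for 3 of 39 members, Ldha, Ero1a and Car9, where 2.18% of genes did. None of the 3 stayed past 2-fold against IPE under every alternative, and Ero1a changed direction there by its other probe sets. Ldhb, the subunit that favours lactate use, read 387.1, 459.7 and 606.6. It was the single member with its highest signal in RPE, and RPE was highest on each of its 4 probe sets, by 0.22 to 0.51 log2 against CBPE and 0.50 to 0.80 against IPE, under 2-fold throughout.

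Aldoc and Eno2, isoforms best known from brain, were set apart by IPE. Aldoc read 615.5, 195.5 and 193.3, with CBPE and RPE 0.02 log2 apart and IPE 3.15-fold and 3.18-fold above them. Eno2 read 372.8, 113.2 and 144.1, and IPE was 3.29-fold above CBPE and 2.59-fold above RPE. IPE lay at least 2-fold above both other arrays for 7 of 39 members, where 6.39% of genes did: Kdm3a, Epas1, Slc2a3, Hk2, Pfkfb3, Aldoc and Eno2.

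Between CBPE and IPE the median difference was 0.14 for HIF targets and 0.35 for glycolytic enzymes, beside 0.04 over all genes, and neither direction held: the first turned to -0.11 with array medians made equal and the second to -0.0034 after quantile normalization. Higher in CBPE at least 2-fold were Aldoa, Tpi1, Pgk1 and Ldha among the enzymes and P4ha2, Ero1a and Car9 among the targets. The 4 enzymes were no longer 2-fold higher under quantile normalization or with equal medians. Their direction stayed upward there, as for Ldha at 0.96 with equal medians and 0.25 after quantile normalization. Lower in CBPE were Hk2, Pfkfb3, Aldoc, Eno2, Kdm3a, Slc2a3 and Epas1.

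Signal strength moved with this comparison. Over the 386 genes with a mean signal of at least 2000, the median of CBPE minus IPE was 0.83, with quartiles of 0.45 and 1.24, and 37.3% were at least 2-fold higher in CBPE. Aldoa, Tpi1, Pgk1, Pgam1, Pkm and Ldha are among those genes, with differences of 1.10, 1.04, 1.08, 0.60, 0.45 and 1.21, all inside the quartiles of these equally bright genes. For the enzymes with mean signals of 100 to 500 that were low in CBPE, the median over 4725 such genes was -0.16. The 12 hybridisation controls, which are normally added to each sample in equal amounts, were 2.58-fold brighter on the CBPE array than on the IPE array and 1.64-fold brighter than on the RPE array. The part of array brightness in the enzyme differences was not tested.

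Against CBPE, the low RPE signal of the enzymes was also set beside equally bright genes. Over the same 386 genes the median of RPE minus CBPE was -0.24, with quartiles of -0.42 and -0.03, and RPE was lower by 2-fold or more for 2.33%. Ldha at -1.31, Pgk1 and Pgam1 at -0.98, Tpi1 at -0.80, Aldoa at -0.77 and Pkm at -0.47 all lay below that lower quartile, while Hif1a at -0.11 lay inside the quartiles.

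**Figure D3:**
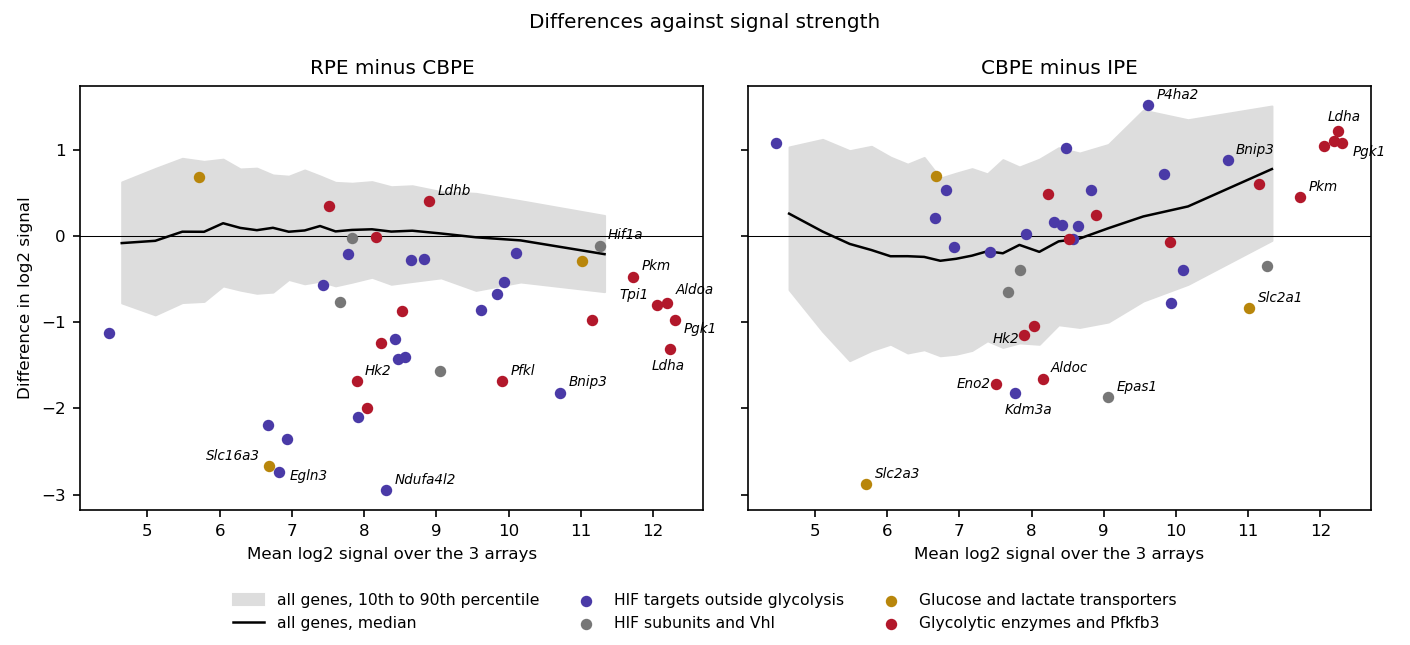
Log2 difference of each member against its mean log2 signal over the 3 arrays, for RPE minus CBPE (left) and CBPE minus IPE (right), with the median (line) and 10th to 90th percentile (grey) of all genes along the signal. On the left many members lie under the grey band, such as Ndufa4l2 at -2.95, and on the right the line itself climbs for bright genes, near which Bnip3 lies, while Epas1 and Slc2a3 lie below the band.

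Probe sets of the same gene gave a further check. Of 24 members with several probe sets above the floor, 20 had all of them in one direction for RPE against CBPE, 18 for RPE against IPE and 14 for CBPE against IPE. Of those at least 2-fold apart, the numbers were 9 of 9, 9 of 11 and 4 of 7. The exceptions were Arnt and Slc2a3 for RPE against IPE, and Ero1a, Slc2a3 and Aldoa for CBPE against IPE. For Slc2a3 the exception was a probe set with CBPE and RPE below the floor, on which the unfloored IPE signal was the highest. Among the Aldoa probe sets, the dimmest read 323.7, 320.6 and 227.6, without the CBPE excess of the other 4. The Pgk1 probe sets read 3203.0, 6655.9 and 2893.1, and 1158.0, 3639.5 and 831.3, besides the brightest, all with CBPE highest. Several of these are of the _x_at kind, which may also bind transcripts of similar sequence.

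**Figure D4:**
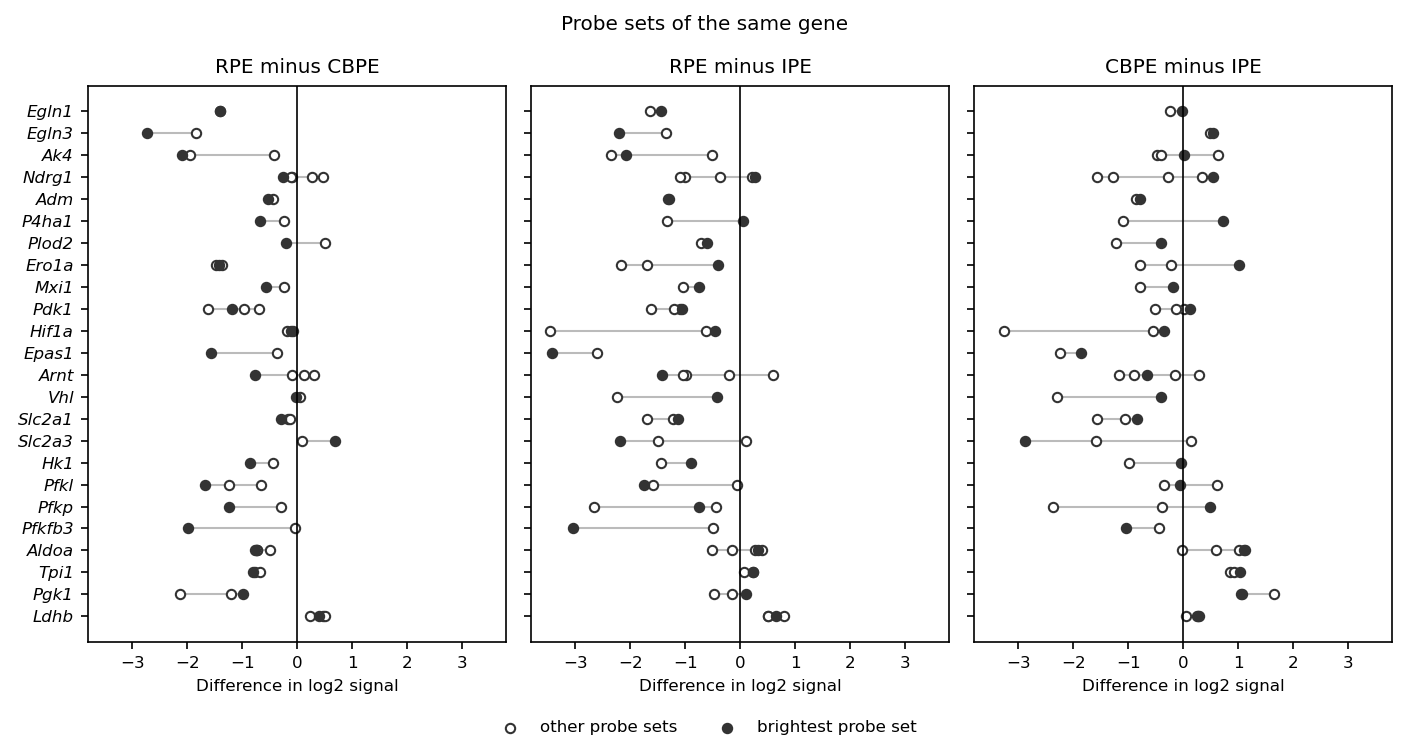
Log2 difference given by each probe set above the floor, for the 24 members with more than 1 such probe set, in the 3 comparisons. Filled points are the brightest probe set that stands for the gene and open points the others. The points of a gene lie on one side of zero for 20 of 24 genes in RPE minus CBPE and for 14 of 24 in CBPE minus IPE.

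Other genes of the pathway were taken from lists written beside the member list, likewise with earlier results of these data known. Among 25 measured HIF targets outside the module, RPE was lower than CBPE by 2-fold or more for 5 and higher for none, a share of 20.0% beside the 4.26% of all genes, with a median of -0.32. Vegfa, the angiogenic growth factor that the retinal pigment epithelium is known to secrete, read 720.4 in IPE, 196.5 in CBPE and 55.4 in RPE, 13.0-fold lower in RPE than in IPE. Bhlhe40, a transcriptional repressor, read 1247.3, 549.9 and 137.5, in the same order as Vegfa, Epas1, Hk2 and Pfkfb3. Higd1a, a respiratory chain factor, read 1171.4, 4979.8 and 1458.1, with CBPE alone high, as for Ldha. Stc1, a secreted glycoprotein, read 193.8, 29.7 and 29.3, with IPE alone high, as for Kdm3a, and the lipoprotein receptor Vldlr read 246.7, 100.1 and 59.3. Stc2 was 2.87-fold below its IPE signal in RPE.

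Of 13 other regulators of the pathway, none was 2-fold apart between RPE and CBPE, where 4.26% of all genes were lower and 3.75% higher. Against IPE 2 were lower in RPE and 1 higher, where 10.5% and 9.87% of genes were, so these counts are near those of all genes. Egln2, the family member not known as a hypoxia-induced gene, read 319.7, 143.4 and 260.4, so CBPE was the lowest, unlike for Egln1 and Egln3. The subunit Arnt2 (328.0, 102.5 and 166.3) and the ubiquitin ligase scaffold Cul2 (287.3, 138.9 and 266.1) also had CBPE lowest. Eloc, the elongin subunit of the Vhl complex, read 1076.4, 4457.2 and 2640.0. The coactivator Ep300 (429.2, 181.0 and 189.7) and the growth kinase Mtor (354.9, 191.5 and 160.2) had IPE highest.

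Among 15 other glycolysis genes and isoforms, none was 2-fold apart between RPE and CBPE, again near the shares of all genes. Bpgm, which diverts the pathway to 2,3-bisphosphoglycerate, read 169.4, 623.3 and 431.2, so IPE was lowest. Slc16a1, the carrier that often serves lactate uptake, read 819.0, 401.0 and 522.8 and so did not follow Slc16a3. The fructose and glucose carrier Slc2a8 (170.2, 72.7 and 101.6) had the same order as Slc16a1. The liver-type pyruvate kinase Pklr (5.4, 4.5 and 33.1) and the insulin-responsive transporter Slc2a4 (40.9, 10.6 and 5.9) were at background on 2 arrays each.

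Of 24 genes of pyruvate oxidation and the citrate cycle, none was 2-fold apart between RPE and CBPE (median 0.12), beside 4.26% of all genes lower and 3.75% higher. Against IPE, 1 was lower in RPE and 3 were higher, beside 10.5% and 9.87%. None of 6 pentose phosphate pathway genes was 2-fold apart in any of the 3 comparisons, a list too short to be read against these shares. The isoforms of pyruvate dehydrogenase kinase diverged. Pdk4, known to rise in fasting, read 20.6, 44.6 and 71.8, highest in RPE, the reverse of Pdk1, and Pdk2 read 175.1, 80.0 and 77.7. Pdk3 (231.2, 478.4 and 417.1), the mitochondrial pyruvate carrier Mpc1 (699.3, 2175.8 and 1657.7) and the malate dehydrogenase Mdh1 (1070.4, 2151.8 and 2177.2) had IPE lowest.

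Of 7 glycogen genes, RPE was lower by 2-fold or more for 2 when compared with CBPE, where 4.26% of all genes were, and for 4 when compared with IPE, where 10.5% were. Gys1, the glycogen synthase of muscle and most tissues, read 196.1, 218.7 and 64.6, with RPE alone low, like Pfkl. The phosphorylases that release glucose from glycogen were lower in RPE than in IPE, Pygl (403.5, 188.2 and 81.3) by 4.96-fold and Pygm (116.6, 67.4 and 55.8) by 2.09-fold. The branching enzyme Gbe1 read 84.0, 61.2 and 34.3, and Ugp2, which makes the glucose donor for glycogen, read 1258.9, 550.4 and 640.8.

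**Figure D5:**
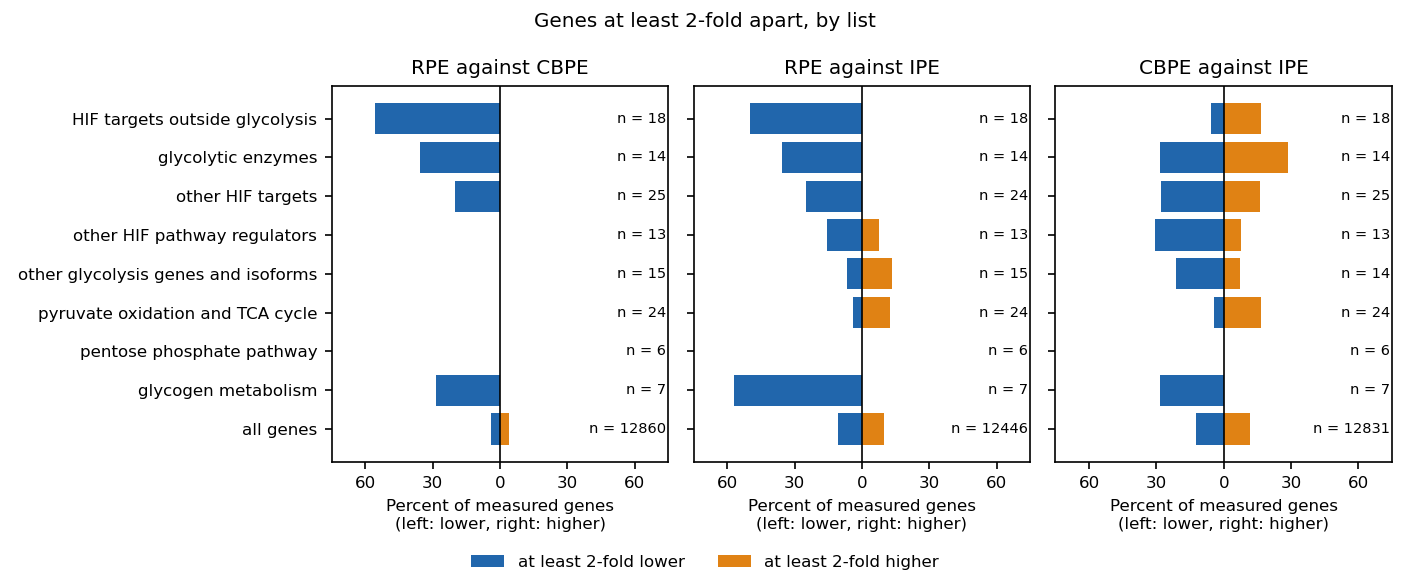
Percent of measured genes at least 2-fold lower (blue, left) or higher (orange, right), for the HIF targets and glycolytic enzymes of the module, 6 other lists and all genes, in the 3 comparisons of single arrays, with the number measured (n) beside each bar. In RPE against CBPE the HIF targets reach 10 of 18 lower and the citrate cycle, pentose phosphate, regulator and other glycolysis lists have none, beside 4.26% of all genes.

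Signals of cell type markers and of RNA quality controls also differed between the arrays. Of 15 macrophage and leukocyte markers, 12 were above the floor in CBPE, 8 in RPE and 6 in IPE, with summed signals of 2673.6, 590.1 and 398.9, and Ptprc, Itgam and C1qa were at the floor on every array. Of 12 endothelial markers, 11 were above the floor in CBPE, 5 in RPE and 6 in IPE, with summed signals of 2052.9, 630.1 and 1306.7, and Vwf was at the floor on every array. Cell cycle genes also had their largest sum in CBPE, with a summed signal over 16 genes of 7145.7 in CBPE, 5527.2 in RPE and 2865.2 in IPE. The pigment epithelium list had its largest sum in IPE (6129.8), with 2055.3 for RPE and 1236.6 for CBPE. The visual cycle gene Rpe65 was at the floor on every array. Dct, Pmel and Rlbp1 were at the floor in CBPE, whereas Ttr and Best1 were at the floor in IPE and RPE but not in CBPE. Of 13 markers measured between CBPE and IPE, 9 were at least 2-fold lower in CBPE, beside 12.5% of all genes. The markers Krt8, Krt18 and Ttr were at least 2-fold higher there, beside 11.8%. In the order IPE, CBPE and RPE, the pericyte and smooth muscle list summed to 14020.4, 33407.3 and 22761.2, the fibroblast list to 40142.7, 69856.8 and 53009.5, the glial list to 7878.8, 960.3 and 1932.6, and the skeletal muscle list to 176.7, 1507.4 and 1527.5. The 3′ to 5′ ratio of Actb signals, which grows as RNA is broken down, was lowest in IPE at 1.50 and reached 2.26 in CBPE and 2.25 in RPE. The 5′ control probe set for 18S ribosomal RNA read 17.6 in IPE and 27.7 in RPE but 274.3 in CBPE. The part of cell make-up and RNA quality in the member differences was not tested.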

How the data were processed

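RNA of 3 cultures was measured on 1 array each, made with biotin-labelled RNA from 1 µg of total RNA per the labels' protocols. The deposited values are linear intensities, 1 for each of 45101 probe sets (64 of them controls) and array. For the software and the probe summary, the method is not given in the sources used here. Each array had a 2% trimmed mean of 100.001 in the deposited intensities, and that scale was kept. Whether animals were pooled is not stated in the labels.

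Symbols came from the platform annotation of 2016, updated by gene identifier to the RefSeq table of GRCm38.p6 (Ero1l is now Ero1a). Of 35890 listed probe sets, 34958 had 1 gene and 932 several, which were not used, and 9160 were not listed. Control probe sets stood for no gene. A gene was represented by its brightest probe set, by mean log2 over the arrays with values raised to the floor, the 50th percentile of each array's probe sets. A fold against a signal below background is a bound, over the larger of the floor and the brightest absent bacterial control (20.2 in CBPE). The number of arrays limits the precision, and with 1 array per culture there is no p-value. All 42 members are given by value or by status. Of each further pathway list, up to 6 genes with the largest difference among those at least 2-fold apart are named, besides Gapdh and Vegfa. Members and lists were chosen with earlier results of these data known. The 7 alternatives are quantile normalization, equal medians, 2 other floors and 3 other choices of probe set. The calling code was tested on simulated data. Calculations used Python 3.11.15, numpy 2.4.6, pandas 2.3.3, scipy 1.17.1 and matplotlib 3.10.9.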

Additional observations from a re-analysis of the deposited data

How the results depend on the processing

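The direction of the median difference of HIF targets and of glycolytic enzymes held under the 7 alternatives in both comparisons with RPE: from -1.23 to -0.85 and from -0.92 to -0.56 against CBPE, and from -1.34 to -0.75 and from -0.78 to -0.32 against IPE. The target median of -0.85 against CBPE came from a fixed floor of 100, which raises dim RPE signals. With the second brightest probe set, which leaves 10 targets and 8 enzymes, RPE was lower than CBPE by 2-fold or more for 5 targets and 2 enzymes. The share of all genes was 3.59% there, and the enzyme median was -0.56. By the same probe sets 3 enzymes were lower in RPE than in IPE, beside 18.3% of all genes. CBPE against IPE was less stable. HIF targets lower in CBPE numbered 2 under quantile normalization, equal medians or the second brightest probe set, and those higher numbered 1 with equal medians and 0 with the second brightest. Enzymes lower in CBPE numbered 2 with the mean of all probe sets and 1 with the second brightest, and those higher numbered 0 under quantile normalization, 0 with equal medians, 2 with the mean of all probe sets and 2 with the second brightest. Ero1a turned to -0.23 with its second brightest probe set, and without _x_at and _s_at probe sets the Slc2a3 difference from IPE turned to 0.15 for CBPE and 0.11 for RPE. The Slc2a3 values arose from the floors that stood in for its CBPE and RPE signals. The cause of the other shifts was not tested, apart from the fewer genes of the second probe set. Equal medians moved the median of all genes to -0.20 for RPE minus IPE and -0.22 for CBPE minus IPE, with 15.4% lower and 6.28% higher, and 18.5% lower and 7.36% higher. Leaving out a replicate was not possible. No paired analysis was possible because each culture had 1 array. Signal over background limits Car9 and the dim probe sets of Slc2a3.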
